A study of Mus musculus with 16 samples.

Results

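Conventional natural killer (cNK) cells were selected among the CD45+ leukocytes of MC38 and Panc02-SIY tumors by their unique molecular identifier (UMI) counts, and 1152 of 16350 kept cell barcodes met the selection. A member carried at least 2 UMIs of Ncr1 and Klrb1c together, no UMI of Cd3d or Cd3e, at least 1 UMI of Eomes or Itga2, and no UMI of Itga1. Ncr1 encodes the activating receptor NKp46 and Klrb1c encodes NK1.1. Cd3d and Cd3e encode chains of the T cell receptor complex, Eomes encodes the transcription factor of the conventional NK lineage, and Itga2 and Itga1 encode CD49b and CD49a. Members were thus selected on measured UMI counts of these 7 genes, whose values describe the selection without a test. Members carried a median of 6 UMIs of Ncr1 and Klrb1c, 930 carried an Eomes UMI, 857 an Itga2 UMI and 635 both. At the edge of the selection, 91 members had exactly 2 UMIs of Ncr1 and Klrb1c, while 62 barcodes with 1 UMI met the other conditions and were outside. Another 167 barcodes lacked both Eomes and Itga2, 107 were outside through a single Itga1 UMI, and 117 through a single UMI of Cd3d or Cd3e.

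NK cells are innate cytotoxic lymphocytes that kill stressed or transformed cells by releasing perforin and granzymes, and that secrete interferon gamma and chemokines. Receptors that recognize MHC class I molecules restrain them, while receptors for stress ligands and for antibody activate them. Conventional NK cells circulate and depend on Eomes and T-bet, whereas the related ILC1 and tissue-resident NK cells are retained by integrins such as CD49a and express a different set of effectors. In irradiated cells, DNA breaks activate p53, whose targets halt the cell cycle or trigger apoptosis, and lymphocytes are among the more radiation-sensitive cells.

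The study compared untreated tumors with tumors taken 24 h after 12 Gy, in wild-type C57BL/6J mice that were 6 to 8 weeks old per its methods and carried subcutaneous flank tumors. The MC38 line comes from a colorectal carcinoma. The Panc02-SIY line comes from a pancreatic carcinoma and carries the SIY model antigen. Live CD45+ cells were sorted and profiled with 10x 3′ version 3.0 chemistry. The 4 groups were MC38 untreated, MC38 irradiated, Panc02-SIY untreated and Panc02-SIY irradiated, each with 4 replicates in the labels. The methods speak of 3 animals in a group, and no source ties a library to an animal, so the p-values measure the spread between libraries, which may in part be technical.

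The number of cNK cells differed greatly between the tumors. In Panc02-SIY tumors 1118 were found, with 73, 57, 100 and 113 in the untreated libraries and 134, 193, 244 and 204 in the irradiated libraries. In MC38 tumors 34 were found, with 4, 2, 0 and 4 in the untreated libraries and 2, 7, 9 and 6 in the irradiated libraries. The median depth per member was 4447.5 UMIs in Panc02-SIY and 9142 UMIs in MC38. The MC38 libraries also share cell barcodes. Their 9843 deposited barcodes held 2632 different strings, of which 1239 occurred in more than 1 MC38 library, compared with 187 of 18136 strings in Panc02-SIY. A repeated string was kept only in the library where it had the most UMIs, and 21 of the 34 MC38 members but only 3 of the 1118 Panc02-SIY members had a string that another library also held. Several results that rest on MC38 are therefore also given without those strings where enough members were left, and Panc02-SIY carries most of the description.

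Genes that the selection did not use were measured as a check of the label, and not all of them set members apart. After thinning each barcode to 1500 UMIs, which left out 5 shallower Panc02-SIY members, a Gzma (granzyme A) UMI was found in 97.6% of Panc02-SIY members. It was found in 58.05% of the Itga1-positive NK cells, 23.3% of the CD8 T cells and 2.62% of the macrophages of the same tumors, and the last share is the level in cells that should lack the gene. Without thinning the shares were 98.8%, 69.5%, 37.8% and 12.6%, at median depths of 4447.5, 6548, 7821 and 8015 UMIs. Prf1 (perforin) was found in 75.9% of members against 0.695% of macrophages after thinning, and Klre1, an NK lectin-like receptor, in 71.2% against 0.327%. CD8 T cells held them in 32.4% and 31.9%, and Itga1-positive NK cells in 44.3% and 54.6%. Other NK genes were as common elsewhere. Klrd1 was in 66.8% of members and 71.8% of CD8 T cells, and Nkg7 in 93.4% and 94.5%. Tyrobp was in 90.3% of members and 92.7% of macrophages, and Fcer1g in 93.5% and 94.9%. Klrk1, Il2rb and Tbx21 were most frequent in members (66.04%, 93.4% and 25.2%). Itgam (CD11b), a marker of mature NK cells, was found in 22.1% of members and in 22.1% of macrophages, which also express it. The ILC1 genes were rare, with Cxcr6 in 1.17% of members, Il7r in 1.17%, Tnfsf10 in 1.53% and Cd200r1 in 0.359%. Mki67, a proliferation gene, was found in 1.26%. Comparison populations were selected in the same manner. Itga1-positive NK cells met the Ncr1 and Klrb1c rule and the Cd3d and Cd3e rule and carried an Itga1 UMI (396 barcodes), and CD8 T cells had 2 or more UMIs of Cd3d and Cd3e and of Cd8a and Cd8b1 with none of Ncr1 or Klrb1c (5228 barcodes).

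Conventional NK cells made up a larger share of CD45+ barcodes in irradiated than in untreated Panc02-SIY tumors. The untreated libraries held 8.53%, 3.41%, 7.35% and 3.23%, and the irradiated libraries held 16.6%, 10.7%, 11.9% and 7.54%. The means were 5.63% ± 2.71 and 11.7% ± 3.77 (SD, n = 4 each), and the ranges overlapped, since the lowest irradiated library lay below the highest untreated one. The exact two-sided permutation p was 0.0571, also 0.0571 after adjustment over the 4 share comparisons, where 4 against 4 libraries cannot go below 0.0286 and the threshold was 0.1. In MC38 tumors the untreated libraries held 2.42%, 1.6%, 0% and 1.31% and the irradiated libraries 2.67%, 5.79%, 4% and 1.64%. These percents rest on 165, 125, 215 and 305 kept barcodes untreated and on 75, 121, 225 and 365 irradiated. Between 772 and 1055 barcodes of each MC38 library passed the filter before repeated strings were removed. The means were 1.33% ± 1.01 and 3.52% ± 1.79 (SD, n = 4 each), the ranges overlapped, and the exact permutation p was 0.0571 here too. This call was lost with all barcodes, shared strings being kept in every library, where the MC38 means were 0.452% ± 0.213 and 0.762% ± 0.333 (SD, n = 4 each, a difference of 0.309 percentage points against 2.19, exact permutation p = 0.171). It was also lost with no filter on genes or mt- UMIs, with means of 0.925% and 2.35% (exact permutation p = 0.171). The MC38 share was below the Panc02-SIY share in both states with no overlap between libraries (exact permutation p = 0.0286, adjusted 0.0571, the first being the smallest possible). In MC38 untreated replicate 3 no member was found among 215 barcodes, which allows a share of up to 1.4% by counting error alone. None of the 4 comparisons passed the threshold after thinning to 1500 UMIs or with only the strings found in 1 library, where the adjusted p was 0.114 or higher. Leaving out 1 library also ended the radiation calls (adjusted p = 0.114), except for untreated replicate 1 or irradiated replicate 4 of either tumor, and 4 against 3 libraries cannot go below 0.0571.

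These are shares of sequenced leukocytes, so a rise in cNK cells and a loss of other cells cannot be told apart. The CD8 T share of Panc02-SIY was 40.4% ± 4.58 untreated and 26.4% ± 8.26 irradiated (SD, n = 4 each, exact permutation p = 0.0286, 0.152 after adjustment over 8 tests), while the Itga1-positive NK share was 2.85% ± 0.971 and 2.82% ± 0.669. As a percent of barcodes outside the CD8 T selection, cNK cells were 9.29% ± 3.96 in untreated and 15.6% ± 3.47 in irradiated Panc02-SIY tumors. The libraries overlapped (SD, n = 4 each, exact permutation p = 0.0857, adjusted 0.0857). As a percent of all barcodes in the NK selection, cNK cells were 59.3% ± 4.11 in untreated and 72.4% ± 3.92 in irradiated Panc02-SIY tumors, with no overlap between the libraries (n = 4 each, exact permutation p = 0.0286, adjusted 0.0571). Members must lack an Itga1 UMI, so depth enters this share. The median depth of members was 5067 UMIs in untreated and 4266 UMIs in irradiated Panc02-SIY tumors. This share was not taken after thinning, and the part of depth in it was not tested.

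**Figure D1:**
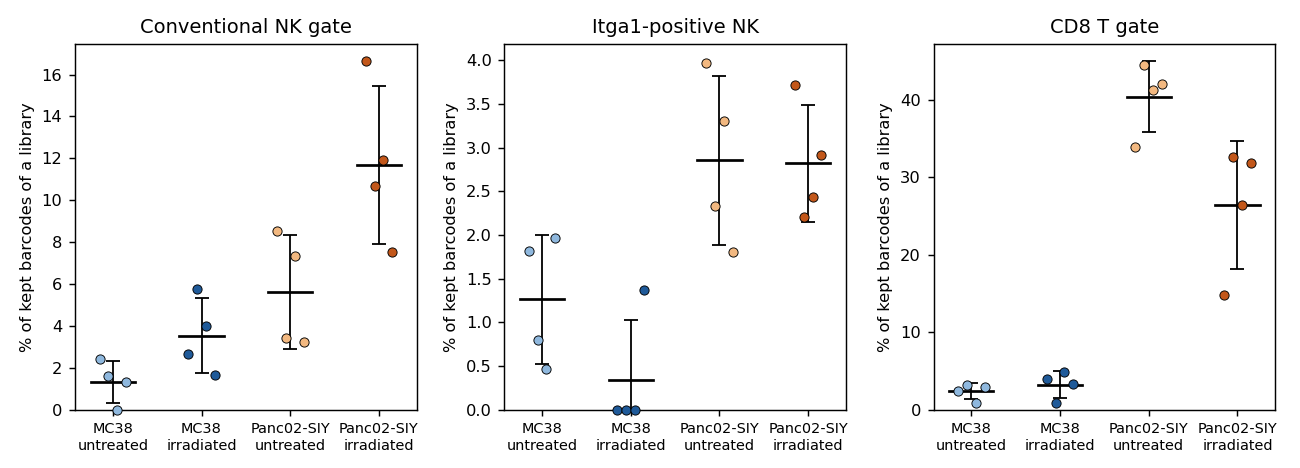
Share of kept barcodes (%) per library in the cNK, Itga1-positive NK and CD8 T selections for the 4 groups; each point is 1 library, and the bars are the mean and SD of 4 libraries. In Panc02-SIY the mean cNK share was 5.63% untreated and 11.7% irradiated, the Itga1-positive NK share 2.85% and 2.82%, and the CD8 T share 40.4% and 26.4%.

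The question for gene expression was how cNK cells found in a tumor 24 h after 12 Gy differed from those of untreated tumors. UMIs were summed over the members of a library and expressed as CPM after TMM scaling. A gene was called when its Benjamini-Hochberg value from edgeR's quasi-likelihood test was under 0.1 with a change of over 1.3-fold. In Panc02-SIY cNK cells 3 of 9686 genes were called higher (0.031%) and 2 lower (0.0206%; 0.0516% in either direction), while 469 had an unadjusted p below 0.05. Without untreated replicate 1 the 5 calls became 2, without irradiated replicate 2 or 4 they became 3, and without irradiated replicate 1 they became 9. Called higher were Cdkn1a, Phlda3 and Serpine2, and called lower were Cd7 and Ltb. Of the 42 p53 targets tested, 2 were called higher and none lower, with a median log2 change of 0.31 against 0.03 for all genes. When at least 3 UMIs of Ncr1 and Klrb1c were required (1061 members), none of the 3 higher calls was left and both lower calls were. At a minimum count of 10, Cdkn1a and Phlda3 were not called, with RLE scaling Cdkn1a was not, and after thinning, without likely doublets or by DESeq2 without independent filtering Phlda3 was not.

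Cdkn1a (ENSMUSG00000023067, chr17:29090976-29100727 of GRCm38) encodes p21, the p53-induced inhibitor of cyclin-dependent kinases. It stood at 57.9, 66.01, 29.7 and 46.9 CPM in the untreated libraries and at 106.2, 154.5, 127.2 and 246.4 CPM in the irradiated libraries. Every irradiated library lay above every untreated library, and irradiated replicate 4 was the highest. The log2 fold change was 1.73 (SE 0.31, edgeR adjusted p = 0.0845). Fitted on the Panc02-SIY libraries alone it was 1.71 with an adjusted p of 0.126, which ends the call, as did leaving out untreated replicate 1, 2 or 4 or irradiated replicate 2. A Cdkn1a UMI was found in 6.31% ± 0.774 of untreated and 15.6% ± 4.15 of irradiated members per library after thinning (SD, n = 4 each), and in 15.7% and 27.98% without it.

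Phlda3 (chr1:135766119-135769136), a p53 target that restrains AKT signaling, was found at 0, 0, 0 and 1.56 CPM in untreated and at 12.3, 12.2, 7.18 and 17.3 CPM in irradiated libraries. That is 1 UMI in 1886550 against 46 UMIs in 3733889, a ratio of 23.2 with a 95% counting interval of 3.97 to 938. The untreated libraries were at or near 0 and the irradiated ones were not (edgeR adjusted p = 0.0549), and the call was lost without untreated replicate 1, 2 or 3 or irradiated replicate 2 or 4. Serpine2 (chr1:79794197-79861180), a secreted inhibitor of serine proteases, was found at 0, 7.33, 21.8 and 9.37 CPM in untreated and at 83.1, 50.02, 104.6 and 78.5 CPM in irradiated libraries. The groups did not overlap, and the log2 fold change was 2.91 (SE 0.47, edgeR adjusted p = 0.0549), with the call lost without untreated replicate 2 or 4.

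Both genes that fell encode proteins of lymphoid surfaces. Cd7 (chr11:121036747-121039418), an immunoglobulin-family receptor of T and NK cells, stood at 202.5, 212.7, 215.5 and 325 CPM in untreated and at 100.8, 123.4, 87.2 and 112.2 CPM in irradiated libraries. No library of one group reached the range of the other, and Cd7 fell by 1.19 on the log2 scale (SE 0.18, edgeR adjusted p = 0.000178). It kept its call in each alternative fit for which an adjusted p was given. Ltb (chr17:35194439-35196320) encodes lymphotoxin beta, a membrane cytokine of the TNF family. It stood at 139.8, 95.4, 126.5 and 112.5 CPM in untreated and at 66.7, 61.1, 73.9 and 52.02 CPM in irradiated libraries. The groups did not overlap, and Ltb fell by 0.92 (SE 0.20, edgeR adjusted p = 0.0583), with the call lost without untreated replicate 1 or 3 or irradiated replicate 2 or 4. Thinned to 1500 UMIs, the share of members with a Cd7 UMI was 25.8% ± 5.49 untreated and 13.1% ± 2.6 irradiated (SD, n = 4 each).

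**Figure D2:**
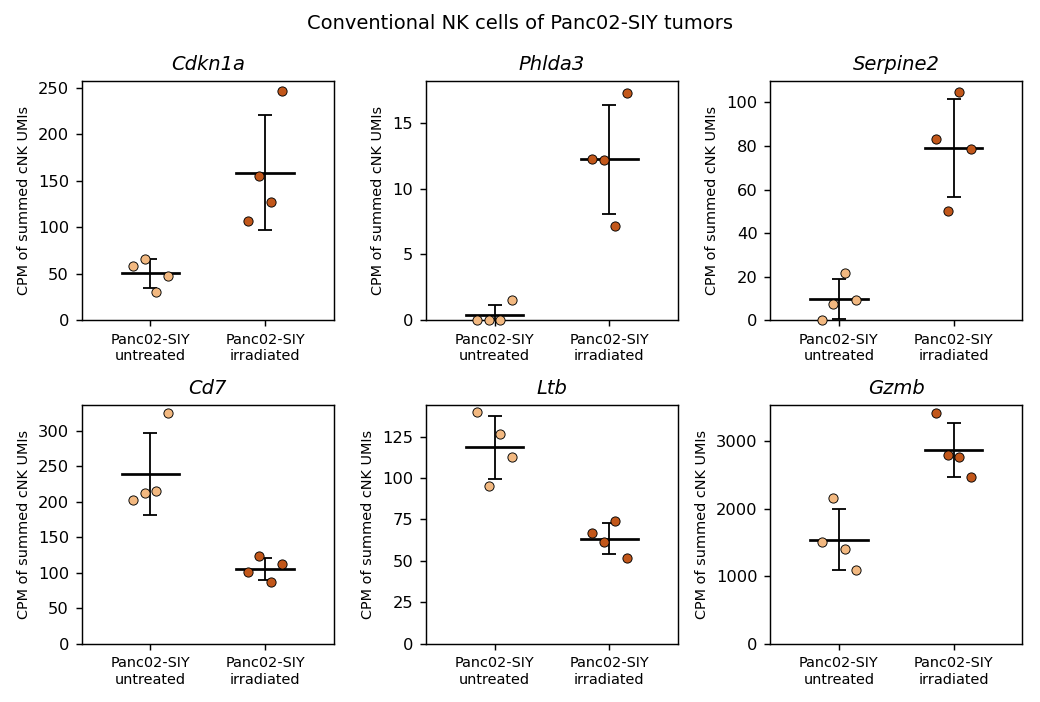
Scaled CPM of the summed cNK UMIs per library for Cdkn1a, Phlda3, Serpine2, Cd7, Ltb and Gzmb in Panc02-SIY tumors; each point is 1 library, and the bars are the mean and SD of 4 libraries. The untreated and irradiated libraries do not overlap in any of the 6 panels, and the first 5 genes were called while Gzmb was not.

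Effector genes were not called in either direction. Of the 17 granule and death effectors tested, none passed, with a median log2 change of 0.16. Gzmb (granzyme B, a protease that starts target cell apoptosis) stood at 1514, 2164, 1408 and 1090.5 CPM in untreated and at 3428, 2798, 2772 and 2474 CPM in irradiated libraries. The ranges did not overlap, but the log2 change of 0.90 (SE 0.26) had an edgeR adjusted p of 0.737, and the share of members with a Gzmb UMI after thinning was 60.6% ± 4.83 and 79.8% ± 3.74 (SD, n = 4 each). Prf1 had a log2 change of 0.44 (SE 0.16, adjusted p = 0.782), also without overlap between the libraries. Gzma, at 9074 to 10852 CPM in untreated and 8703 to 12416 CPM in irradiated libraries, had a change of 0.12 (SE 0.30) and overlapping ranges. Ifng, the cytokine interferon gamma, and Ccl5, a T cell attracting chemokine, had changes of 0.08 (SE 0.28) and -0.23 (SE 0.33).

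Receptor and maturation genes were counted in the same fit. None of 23 activating receptors and adaptors or 22 inhibitory receptors was called. Of 20 NK maturation genes 2 were called lower, Cd7 and Ltb, which are the only 2 of all genes called lower (0.0206%). The list was chosen with earlier results of these data known, so this count restates the 2 calls and is no separate support. Itgam had a log2 change of -0.05 (SE 0.17). Tnfrsf9, which encodes the costimulatory receptor 4-1BB, stood at 106.1, 139.4, 124.6 and 93.7 CPM in untreated and at 243.8, 267.9, 322.1 and 283.8 CPM in irradiated libraries. Its log2 change of 1.29 (SE 0.38, edgeR adjusted p = 0.782) was not called, although the groups did not overlap. In the fit of the Panc02-SIY libraries alone it was called (1.28, SE 0.15, adjusted p = 4.25e-06). That fit called 14 of 9191 genes (0.152%; 0.0653% higher and 0.087% lower). None of 70 interferon-stimulated genes, 28 S phase genes or 28 G2 and mitosis genes was called in the fit of all groups, with median log2 changes of 0.19, 0.22 and 0.25.

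Markers of other cells were measured in the same sums. The 20 macrophage and monocyte genes summed to 1268, 2216.9, 1619.2 and 4159.9 CPM in the untreated and to 1313.3, 3438.4, 2394.1 and 4082.4 CPM in the irradiated libraries. The groups overlapped, and replicate 4 was the highest in both. Ccr2 was the most abundant of these genes in both groups, and none of the 19 genes tested was called. The 5 defining markers, none of them at 0 over a group, summed to 33.5, 268.5, 135.6 and 1492.7 CPM untreated and to 46.3, 238.1, 288.03 and 1281.2 CPM irradiated. Macrophages of these tumors held Cdkn1a at a mean of 165.7 CPM untreated and 771.4 CPM irradiated, and Serpine2 at 0.121 and 0.657 CPM. Without members that carried a UMI of Cd3g, Trac, Cd79a, C1qa, C1qb or Csf1r (803 members left), the log2 change of Cdkn1a was 1.04 and that of Serpine2 was 2.22, and both were called. The 14 T cell genes summed to 1108.8 ± 69.8 CPM untreated and 1014.2 ± 49.1 CPM irradiated (SD, n = 4 each), with Trbc1 the most abundant.

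The p53 response of cNK cells was next compared with that of neighboring lymphocytes in the same Panc02-SIY libraries. The p53 response element consists of a pair of 10-base sites. With at most 1 mismatch and a spacer of up to 10 bases, a match was found near the start of 6 of the 39 listed p53 targets that have a RefSeq promoter window (15.4%), compared with 1.01% of all 27025 symbols, on either strand of 300-base windows of GRCm38.p6. The matches of Cdkn1a, Ccng1 and Bax are shown because these are the targets with a match whose response differed from that in CD8 T cells, with the paired sites in capitals and any spacer in lower case. They lie at chr17:29090928-29090947 on the plus strand for Cdkn1a, and on the minus strand at chr11:40755462-40755481 for Ccng1 and chr7:45467090-45467110 for Bax.
Cdkn1a: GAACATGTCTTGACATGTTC
Ccng1: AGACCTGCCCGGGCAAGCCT
Bax: AAGCATATCCcAGGCAAGCTT
The other 3 matches were in Gtse1, Polk and Rps27l. Of the 5 other targets that differed from CD8 T cells, Bbc3 and Dcxr had a window without a match, and Trp53inp1, Ptp4a3 and Pvt1 are named only. Each match describes the sequence, and binding of p53 was not measured.

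Each p53 target whose response differed by the test responded less in cNK cells than in CD8 T cells or Itga1-positive NK cells. Fitted on their own, the Panc02-SIY libraries gave 1 of 36 p53 targets called higher in cNK cells (median log2 change 0.18; 0.0653% of all genes tested called higher). CD8 T cells gave 29 of 48 (median 1.00; 2.02% of all genes higher, 5.02% in either direction), and Itga1-positive NK cells gave 13 of 33 (median 0.92; 0.566% higher, 0.797% in either direction). The CD8 T sums hold 5182 barcodes, the cNK sums 1118 and the Itga1-positive NK sums 380. The difference between responses was tested directly, with library as a block. Against CD8 T cells, 116 of 11327 genes responded more positively in cNK cells (1.02%) and 41 more negatively (0.362%; 1.39% in either direction), and 8 of 47 p53 targets were among the latter and none among the former. Against Itga1-positive NK cells, a test chosen after seeing the data, 8 of 10081 genes responded more positively (0.0794%) and 15 more negatively (0.149%; 0.228% in either direction), with 5 of 42 p53 targets among the latter. The median differences over the p53 targets were -0.49 and -1.05, against 0.05 and 0.00 over all genes. Without Panc02-SIY untreated replicate 4 the calls against CD8 T cells went from 157 to 36, and without untreated replicates 1, 2 and 3 in turn they went to 245, 60 and 97. The 23 calls against Itga1-positive NK cells went to 64 without irradiated replicate 2, 47 without untreated replicate 1 and 13 without untreated replicate 4.

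Neutrophil markers were measured in the same sums, in unscaled CPM. In CD8 T cells the 10 neutrophil genes, of which S100a8 was the most abundant, summed to 40.3, 48.004, 40.8 and 25.2 CPM in untreated and to 612.1, 58.6, 189.2 and 149.6 CPM in irradiated libraries, with no overlap and irradiated replicate 1 the highest. In cNK cells, where S100a8 was again the most abundant, they summed to 45.5, 243.1, 217.7 and 10.46 CPM and to 92.6, 62.3, 58.2 and 29.9 CPM, and the groups overlapped. In Itga1-positive NK cells the sums were 50.9, 35.3, 46.2 and 16.2 CPM and 39.8, 44.99, 218.6 and 22.001 CPM, with overlap. The 4 defining markers (S100a8, S100a9, Csf3r and Cxcr2) were above 0 in each of the 6 groups. All 10 genes had a positive change in CD8 T cells alone (median log2 change 1.66), with Clec4d called. Against CD8 T cells all 10, and against Itga1-positive NK cells all 8 tested, had a negative difference of responses (medians -2.46 and -1.78), and none was called. The part of neutrophil RNA in the p53 comparison was not tested.

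In CPM of each population's own total, without TMM scaling, Cdkn1a stood at 49.05 ± 16.01 in untreated and 157.3 ± 60.9 in irradiated cNK cells (SD, n = 4 each). It stood at 15 ± 6.04 and 193.6 ± 33.7 in CD8 T cells, and at 18.1 ± 6.51 and 327.5 ± 42.8 in Itga1-positive NK cells. Untreated cNK cells thus had the highest mean and irradiated cNK cells the lowest. The log2 difference of the responses was -1.79 (SE 0.31, edgeR adjusted p = 0.0105) against CD8 T cells and -2.45 (SE 0.32, adjusted p = 3.83e-07) against Itga1-positive NK cells.

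Ccng1 (chr11:40748552-40755311), a p53-induced cyclin that takes part in feedback on p53, stood at 66.99, 68.9, 85.9 and 70.2 CPM in untreated and at 129.4, 101.6, 103.2 and 137.5 CPM in irradiated cNK libraries. In CD8 T cells the means were 63.5 ± 8.22 and 325.2 ± 27.1 CPM (SD, n = 4 each). Although the cNK groups did not overlap, the difference of the responses was -1.61 (SE 0.17, edgeR adjusted p = 4.92e-08), and -1.88 (SE 0.26, adjusted p = 1.5e-06) against Itga1-positive NK cells. Bax (chr7:45461697-45466898), which permeabilizes mitochondria in apoptosis, had means of 94.1 ± 9.46 and 145.8 ± 16.1 CPM in cNK cells and of 122.1 ± 10.9 and 327.6 ± 24.3 CPM in CD8 T cells (SD, n = 4 each). Its differences were -0.71 (SE 0.16, adjusted p = 0.0148) and -1.13 (SE 0.22, adjusted p = 0.00331).

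Trp53inp1 (chr4:11156431-11174379), a stress-induced p53 cofactor, stood at 57.4, 61.7, 106.9 and 56.8 unscaled CPM in untreated and at 64.03, 77.5, 64.3 and 71.5 CPM in irradiated cNK libraries, so the groups overlapped. In CD8 T cells the means were 37.6 ± 11.2 and 140.5 ± 22.6 CPM, and in Itga1-positive NK cells 54.2 ± 11.2 and 165.5 ± 35.7 CPM (SD, n = 4 each). The difference was -1.87 (SE 0.22, edgeR adjusted p = 6.11e-07) against CD8 T cells and -1.61 (SE 0.29, adjusted p = 0.000514) against Itga1-positive NK cells. Bbc3, which encodes the apoptosis inducer PUMA, differed by -3.02 (SE 0.45, adjusted p = 3.94e-05) against CD8 T cells. Untreated cNK cells held it at 17.5 ± 3.38 CPM, compared with 1.57 ± 0.597 CPM in CD8 T cells (SD, n = 4 each). The p53 targets Dcxr, Ptp4a3 and Pvt1 also responded less than in CD8 T cells (-1.87, -0.93 and -1.97), as did Mdm4, a p53 inhibitor (-1.04). The call of Bax against CD8 T cells was lost without untreated replicate 3, and that of Pvt1 without untreated replicate 2, 3 or 4 or irradiated replicate 3.

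**Figure D3:**
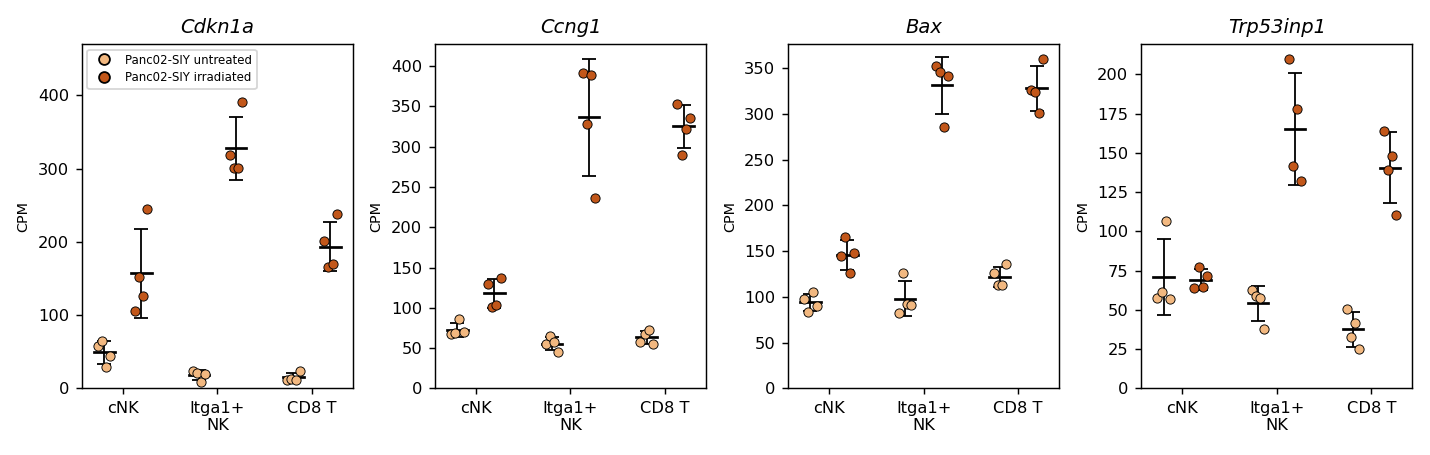
CPM per library of Cdkn1a, Ccng1, Bax and Trp53inp1 in the cNK, Itga1-positive NK and CD8 T cells of untreated and irradiated Panc02-SIY tumors; each point is 1 library, and the bars are the mean and SD of 4 libraries. In each panel the irradiated mean of cNK cells is below that of both other populations, and for Trp53inp1 the cNK groups overlap.

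S phase genes differed in the opposite direction in the comparison with CD8 T cells. They responded more positively in cNK cells than in CD8 T cells for 7 of the 35 tested (Mcm4, Mcm6, Mcm7, Pcna, Rrm1, Hells and Lig1), with none more negative (1.02% of all genes were called more positive), and a median difference of 0.95. Against Itga1-positive NK cells none of the 33 S phase genes tested was called, with a median difference of 0.82. No G2 and mitosis gene was called in either comparison, of 39 tested against CD8 T and 32 against Itga1-positive NK cells. Pcna, the sliding clamp of DNA polymerase, had means of 180.7 ± 28.9 and 126.7 ± 17.6 CPM in CD8 T cells and of 81.9 ± 23.4 and 101.2 ± 17.3 CPM in cNK cells (SD, n = 4 each; difference 0.88, SE 0.19, edgeR adjusted p = 0.0113). Among CD8 T cells 14 of 35 S phase genes fell (3.0% of all genes tested were called lower), and among cNK cells none of the 25 tested passed in either direction. Leaving out untreated replicate 2 or 4 ended the call of Pcna, and each of the other 6 lost its call without at least 1 of untreated replicates 3 and 4. Of the 10 named genes with the smallest p among the more positive calls, Actb (beta-actin) differed by 0.74 (SE 0.08, adjusted p = 8.44e-08), Actg1 by 0.68 (SE 0.09), and Cotl1, Cfl1 and Pfn1, whose products bind actin, by 0.72, 0.61 and 0.56. They were picked from the calls, and no list of actin genes was counted. With RLE in place of TMM scaling the calls against CD8 T cells were 68 more positive and 58 more negative, and DESeq2 called 59 and 44.

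The falls of Cd7 and Ltb differed in how far CD8 T and Itga1-positive NK cells had them too. Cd7 also fell in CD8 T cells, from 116.8 ± 19.8 to 48.5 ± 12.6 CPM, and in Itga1-positive NK cells, from 649.8 ± 116.1 to 327.2 ± 55.3 CPM (SD, n = 4 each). The difference of its response was 0.17 (SE 0.20) and -0.15 (SE 0.18), neither called. Ltb stood at 501.5 ± 97 and 645.6 ± 44.7 CPM in CD8 T cells and at 318.3 ± 80.03 and 385.2 ± 100.5 CPM in Itga1-positive NK cells (SD, n = 4 each), and was called in neither. Its response in cNK cells was more negative than in both, with differences of -1.19 (SE 0.15, edgeR adjusted p = 3.01e-06) and -1.21 (SE 0.21, adjusted p = 0.000284). Serpine2 rose in all 3 populations. Its means were 441.2 ± 108.6 CPM in irradiated Itga1-positive NK cells and 78.6 ± 22.7 CPM in irradiated cNK cells (SD, n = 4 each; difference of responses -2.19, SE 0.51, edgeR adjusted p = 0.033), a call that was lost without untreated replicate 3 or 4.

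Conventional and Itga1-positive NK cells were then compared within libraries, to describe how the conventional cells differ from the most similar population. In the 11 libraries with 3 or more barcodes of each, 450 of 9902 genes were higher in cNK cells (4.54%) and 514 lower (5.19%; 9.74% in either direction). Of 19 ILC1-like genes tested, 17 were lower and none higher, with a median log2 difference of -2.06 against -0.02 for all genes. Of 20 NK maturation genes 9 were higher and 7 lower, of 18 granule and death effectors 6 and 7, of 23 inhibitory receptors 10 and 6, and of 12 cytokine and chemokine genes 3 and 4. Restricted to the 8 Panc02-SIY libraries, 527 genes were called higher and 513 lower.

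Among maturation genes, Zeb2, a repressor that drives terminal NK maturation, ranged from 171.9 to 376.9 CPM (median 283.4) in cNK cells and from 15.2 to 162.6 CPM (median 92.3) in Itga1-positive NK cells. The ranges did not overlap in the 11 libraries (log2 difference 1.85, SE 0.14, edgeR adjusted p = 1.57e-17). Itgam, at medians of 158.5 and 39.1 CPM, was higher in 11 of 11 libraries (1.88, SE 0.20, adjusted p = 1.84e-08). Cma1, a chymase gene of mature mouse NK cells, and Klrg1, an inhibitory receptor of late maturation, were higher by 2.81 (SE 0.43) and 1.74 (SE 0.30). The circulation genes Klf2, S1pr5 and S1pr1 were higher by 1.57, 1.45 and 1.11. Kit (-2.10, SE 0.18), Thy1 (-1.46, SE 0.14), Emb (-1.04, SE 0.25) and Tcf7 (-0.72, SE 0.13) were lower. No separate list of genes of less mature NK cells was counted. The transcription factors Irf8 (1.01, SE 0.09) and Prdm1 (0.99, SE 0.19) were higher, while Ikzf2 (-1.50, SE 0.15) and Tox (-0.86, SE 0.17) were lower.

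The effector genes split by member. Gzma ranged from 4752 to 12140.0 CPM (median 10509) in cNK cells and from 2195 to 8147 CPM (median 3908) in Itga1-positive NK cells. It was higher in 11 of 11 libraries (1.13, SE 0.19, edgeR adjusted p = 0.0027), and in Panc02-SIY the ranges did not overlap. Prf1 was higher by 1.17 (SE 0.23, adjusted p = 0.00918) and Serpinb9, the inhibitor that protects killers from granzyme B, by 0.55 (SE 0.09). Gzmc, by contrast, had medians of 14.3 and 1487 CPM and was lower in 11 of 11 libraries (-6.01, SE 0.67, adjusted p = 0.000154). The granzyme genes are close paralogs, so reads shared between them make single values uncertain. Tnfsf10, the death ligand TRAIL, ranged from 0 to 21.3 CPM in cNK cells and from 43.4 to 150.7 CPM in Itga1-positive NK cells without overlap (-2.93, SE 0.22, adjusted p = 3.06e-20), and the cathepsin Ctsw was lower as well, also without overlap (-0.80, SE 0.10).

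Among secreted factors, the chemokines Ccl5 (1.84, SE 0.27) and Ccl3 (1.54, SE 0.37) and the cytokine Ifng (1.06, SE 0.11) were higher in cNK cells. Xcl1, which attracts cross-presenting dendritic cells (-1.56, SE 0.26), Ltb (-2.04, SE 0.18), the growth factor gene Csf2 (-2.42, SE 0.65) and Flt3l, a dendritic cell growth factor (-0.77, SE 0.14), were lower. Cytokine receptors also divided, with Il12rb2, a chain of the IL-12 receptor, higher (1.05, SE 0.16) and Il7r, the IL-7 receptor, lower (-3.04, SE 0.26, edgeR adjusted p = 6.93e-17). Il7r ranged from 2.69 to 18.9 CPM in cNK cells and from 52.3 to 87.3 CPM in Itga1-positive NK cells of the 8 Panc02-SIY libraries, which is no overlap. Inpp4b, a lipid phosphatase, ranged from 0 to 25.1 CPM against 93.1 to 205.9 CPM with no overlap in any library (-3.54, SE 0.20, adjusted p = 5.72e-29).

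Of the inhibitory receptors, the Ly49 genes Klra4, Klra8 and Klra9 were higher in cNK cells by 1.27 (SE 0.21), 1.57 (SE 0.39) and 0.999 (SE 0.21), and these close paralogs share sequence, so that each value is uncertain. Klrc1, which encodes NKG2A, was lower in 11 of 11 libraries (-1.08, SE 0.11, edgeR adjusted p = 7.98e-14), and the checkpoint receptor Lag3 was lower as well (-2.43, SE 0.25), although its CPM was higher in cNK cells in 1 of 11. Over all genes 4.54% were called higher and 5.19% lower. Of 72 interferon-stimulated genes 13 were lower and none higher, with Ly6e at -0.94 (SE 0.10) and the immunoproteasome gene Psmb8 at -0.50 (SE 0.10). Of 26 immediate early and stress genes 8 were higher and 1 lower, with Fos at 0.997 (SE 0.22) and Nr4a1 at 0.79 (SE 0.12). Of 19 macrophage and monocyte genes 7 were higher, among them Lyz2 (1.98, SE 0.64) and Csf1r (1.44, SE 0.42), and 1 was lower. Lyz2 was not called without MC38 irradiated replicate 4 (1.36, adjusted p = 0.275), nor without any 1 Panc02-SIY library other than irradiated replicate 1, and Cd68 (1.09) was not called without MC38 irradiated replicate 4 (adjusted p = 0.175) or Csf1r without Panc02-SIY irradiated replicate 4. The part of macrophage RNA in these differences was not tested.

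**Figure D4:**
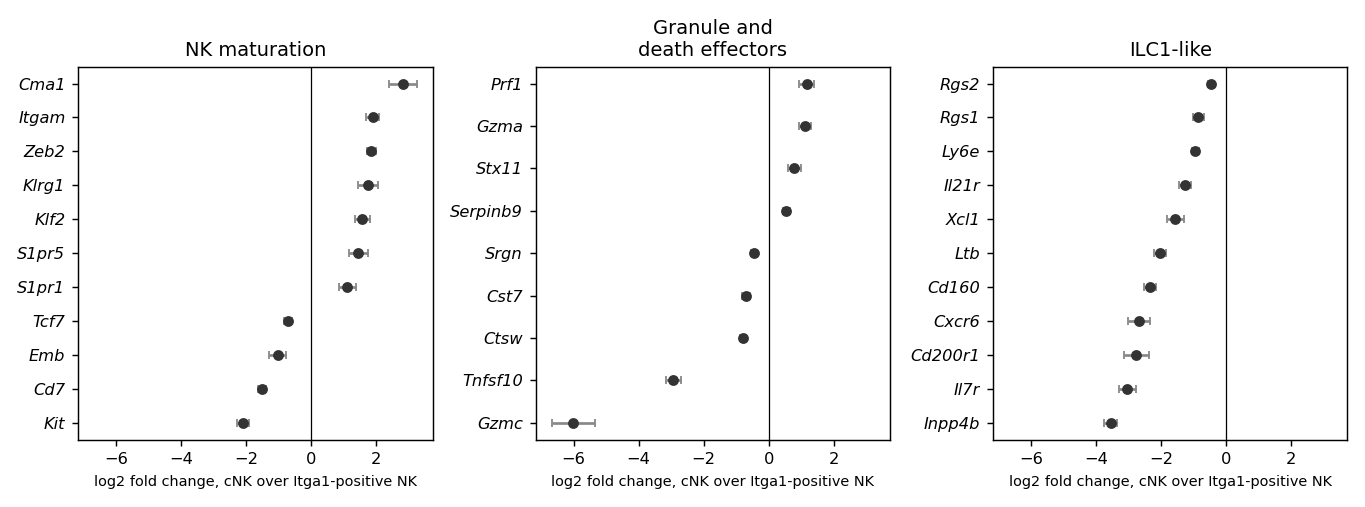
Log2 fold change of cNK over Itga1-positive NK cells for genes of 3 lists, from the fit over 11 libraries with library as a block; points are estimates and bars are SE. The ILC1-like genes drawn lie below 0, from -0.47 for Rgs2 to -3.54 for Inpp4b, while the maturation and granule genes lie on both sides.

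In MC38 tumors the radiation comparison rests on 8 cNK cells in 2 untreated and 22 in 3 irradiated libraries, so it is given briefly. Of 9686 genes 8 were called higher (0.0826%) and 2 lower (0.0206%; 0.103% in either direction), and with RLE scaling 2 and 3. RLE moved the median log2 change of all genes by -0.14 here, by -0.11 in the difference between tumors' responses, and by 0.12 and 0.24 between irradiated and between untreated tumors. H2-K1, an MHC class I heavy chain, stood at 1902 and 1919 CPM in the untreated and at 4187, 4144 and 4587 CPM in the irradiated libraries (1.17, SE 0.20, edgeR adjusted p = 0.000889), and its partner B2m rose by 0.95 (SE 0.20). Bax stood at 103.4 and 105.1 CPM untreated and at 360.5, 476.3 and 337.6 CPM irradiated (1.91, SE 0.43, adjusted p = 0.0484). Neither H2-K1 nor Bax overlapped between the groups, and Prf1 (1.17, SE 0.27), Ly6e (1.33, SE 0.30) and the signaling adaptor Fcer1g (0.98, SE 0.22) also rose. Ikzf3, a lymphoid transcription factor, had 0 UMIs untreated and 28 irradiated, which is at least 2.63-fold higher when 3 UMIs are taken for the whole untreated group. Cd7 stood at 144.8 and 236.6 CPM untreated and at 55.5, 11.9 and 0 CPM irradiated without overlap, and fell by 3.15 (SE 0.68, adjusted p = 0.0482). Commd8, an adaptor of protein sorting and NF-kappaB, fell by 3.05 (SE 0.73). With only these 2 groups in the fit, 0 genes were called by edgeR, with 151 at an unadjusted p below 0.05, and DESeq2 over all groups called 15.

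The sums of MC38 irradiated replicate 4 stood apart. Its 6 members held the 20 macrophage and monocyte genes at 43641 CPM, compared with 3573.5 and 1442.7 CPM in irradiated replicates 2 and 3 and 2045.9 and 2531.2 CPM in the untreated libraries. The 5 defining macrophage markers summed to 8898 CPM there, against 506.6 and 171 CPM in irradiated replicates 2 and 3. Over the irradiated group Cd74 was the most abundant gene of the whole list and none of the defining markers was at 0, while Adgre1 was at 0 in the untreated group. Without this library 22 genes were called, which held 7 of the 10, and the calls of Ly6e (1.15, adjusted p = 0.16), Fcer1g (0.72, adjusted p = 0.244) and Cd7 (-2.54, adjusted p = 0.112) ended. H2-K1 kept its call whichever library was left out. Of the other genes named, all lost theirs without untreated replicate 1, all but Fcer1g without untreated replicate 4, all but B2m without irradiated replicate 3, and Prf1 and Commd8 without irradiated replicate 2. Without irradiated replicate 3 there were 4 calls, and without untreated replicate 1 there were 5. Over the barcodes of all cell types in the irradiated MC38 libraries, the 20 genes averaged 61440 ± 4398.8 CPM. The 5 defining markers averaged 8883.8 ± 1250.4 CPM there (SD, n = 4 each), beside 8898 CPM in the members of replicate 4. The part of macrophage RNA in the MC38 results was not tested.

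Averaged over both tumors, the radiation response had 17 genes called higher (0.176%) and 2 lower (0.0206%; 0.196% in either direction). The comparison uses the same libraries as those above. Bax rose by 1.25 (SE 0.23, edgeR adjusted p = 0.00296), Prf1 by 0.81 (SE 0.16, adjusted p = 0.00826) and Serpine2 by 3.07 (SE 0.47). Also called higher were Ccng1 (2.07, SE 0.47), the cell cycle kinase gene Cdk6 (1.27, SE 0.29) and Rgs1, a regulator of chemokine receptor signaling (0.68, SE 0.16). Cd7 fell by 2.17 (SE 0.35, adjusted p = 0.000638), and the membrane protein gene Emp3 fell by 0.81 (SE 0.19). With RLE scaling 6 genes were higher and 2 lower. Without MC38 irradiated replicate 4, whose members held the macrophage genes at 43641 CPM, Rgs1 was not called (adjusted p = 0.182), and 7 other libraries ended its call too. Bax and Serpine2 kept theirs whichever library was left out, Cd7 lost its call without MC38 untreated replicate 4, and Prf1 without that library or MC38 irradiated replicate 3. Ccng1, Cdk6 and Emp3 each lost theirs without either untreated MC38 library or MC38 irradiated replicate 3, Cdk6 and Emp3 also without Panc02-SIY irradiated replicate 3, and Emp3 also without MC38 irradiated replicate 2. The 19 calls went to 5 without Panc02-SIY irradiated replicate 3, to 9 and 10 without Panc02-SIY untreated replicates 1 and 3, to 6 without MC38 irradiated replicate 3, and to 12 and 8 without MC38 untreated replicates 1 and 4.

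A test of the difference between the responses of the tumors called 6 genes more positive in MC38 (0.0619%) and 1 more negative (0.0103%; 0.0723% in either direction). More positive were H2-K1 (1.21, SE 0.24, edgeR adjusted p = 0.0285), the lymphocyte surface gene Cd52 (1.21, SE 0.26, adjusted p = 0.0633), Ly6e (1.54, SE 0.34, adjusted p = 0.0879) and the immunoproteasome gene Psmb10 (1.99, SE 0.46, adjusted p = 0.0879), while Commd8 was more negative (-3.24, SE 0.76, adjusted p = 0.0879). In Panc02-SIY, H2-K1 stood at 2524, 2677, 2754 and 2637 CPM untreated and at 2453, 2443, 2768 and 2653 CPM irradiated, so that its groups overlapped there. No gene was called by edgeR without Panc02-SIY untreated replicate 1 or 3, where 633 and 645 had an unadjusted p below 0.05. Without Panc02-SIY irradiated replicates 1 to 4 in turn 2, 2, 1 and 18 were called, and without Panc02-SIY untreated replicate 2 there were 3. Without MC38 irradiated replicates 2 and 4 in turn there were 3 and 32, and without MC38 untreated replicate 1 there were 13. Cd52 also lost its call without MC38 untreated replicate 1 or Panc02-SIY irradiated replicate 3, while Ly6e and Psmb10 lost theirs in 8 and Commd8 in 11 of the 13 fits that leave out a library. With RLE scaling 1 gene was called, by DESeq2 without its independent filtering 2, and with it 75.

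Irradiated cNK cells were also compared between the tumors. In irradiated MC38 against irradiated Panc02-SIY, 426 of 9686 genes were higher (4.4%) and 781 lower (8.06%; 12.5% in either direction). With RLE scaling the calls were 525 higher and 558 lower, and DESeq2 called 589 higher and 427 lower. At a minimum count of 10, 574 of 6831 genes were higher and 597 lower. After thinning to the lowest mean UMIs per barcode, 127 were higher and 667 lower. The balance of higher and lower calls thus moved with the filter, the scaling and the depth. The median log2 difference over all genes was -0.27, and the single values stand beside it. With only strings found in 1 library, which left 7 members in 2 irradiated MC38 libraries, 39 were higher and 231 lower. Of the 33 single genes followed in this comparison, 14 kept their call there, 17 lost it and 2 reversed direction. The counts over gene lists below, and the shares over all genes beside them, are from the main fit. Without MC38 irradiated replicate 4, 276 were higher and 522 lower. The tumor line and the preparation of its libraries cannot be told apart in this comparison.

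Interferon-stimulated genes were higher in MC38 for 19 of the 70 tested and lower for 1, with a median difference of 0.71. Of all genes 4.4% were called higher and 8.06% lower. Macrophage and monocyte genes had a median difference of 2.85, with 15 of 19 positive. Irf7, the factor that amplifies type I interferon responses, stood at 152.5, 131 and 337.6 CPM in MC38 and at 31.3, 63.4, 36.9 and 64.8 CPM in Panc02-SIY. The groups did not overlap, and MC38 replicate 4 was the highest (log2 difference 2.07, SE 0.33, edgeR adjusted p = 7.94e-06, and 1.48 without that library). Isg20, an antiviral exonuclease, stood at 41.6, 71.4 and 221.2 CPM against 13.6, 15.6, 12.3 and 20.1 CPM, again without overlap (2.86, SE 0.48, adjusted p = 3.1e-05, and 1.85 without replicate 4). Both kept their call with only strings found in 1 library. The interferon-induced genes Rtp4 (2.38, SE 0.43) and Bst2 (1.83, SE 0.32) did not, with 1.51 and 0.35 there.

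NK maturation and homing genes were lower in MC38, with 10 of 20 maturation genes lower and 1 higher, and 7 of 17 homing genes lower and none higher. Over all genes 8.06% were called lower and 4.4% higher. Zeb2 stood at 55.5, 59.5 and 174.6 CPM in MC38 and at 385.4, 364.6, 303.6 and 313.9 CPM in Panc02-SIY (log2 difference -1.79, SE 0.29, edgeR adjusted p = 7.34e-06, and -2.58 without MC38 replicate 4). Itgam stood at 41.6, 47.6 and 34.9 CPM against 162.1, 162.3, 184.7 and 154.2 CPM (-1.997, SE 0.37, adjusted p = 9.74e-05), and Spn, the sialophorin CD43, at 110.9, 119.1 and 69.9 CPM against 443.9, 402.4, 381.6 and 329.4 CPM (-1.97, SE 0.27, adjusted p = 2.91e-07). None of the 3 overlapped between the tumors. The call of Itgam was lost with only strings found in 1 library (-1.38, adjusted p = 0.282), and those of Zeb2 and Spn were kept. The integrin genes Itga4 (-2.18, SE 0.27) and Itgal (-1.86, SE 0.24) and the cytokine receptor genes Il18rap (-2.21, SE 0.30) and Il2rb (-1.14, SE 0.19) were lower too. Klrg1 had 1 UMI in MC38 against 198 in Panc02-SIY, a ratio of MC38 to Panc02-SIY of 0.0723 per UMI (95% counting interval 0.00182 to 0.408), and it was not called with only strings found in 1 library (adjusted p = 0.517). S1pr5 had none against 149, which is at least 3.47-fold lower in MC38 when 3 UMIs are taken for the group. Between the irradiated groups, only Panc02-SIY held enough UMIs of Klrg1 or S1pr5 for the count filter. Both are therefore given as counts and add no support to the direction.

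Glycolysis and hypoxia genes were higher in MC38 for 10 of the 25 tested and lower for 1, where 4.4% of all genes were called higher and 8.06% lower. Gapdh, a glycolytic enzyme, stood at 1054, 1119 and 1316 CPM in MC38 and at 268.3, 334.6, 215.4 and 419.8 CPM in Panc02-SIY without overlap (1.91, SE 0.20, edgeR adjusted p = 2.05e-10), and the glycolytic genes Aldoa and Eno1 were higher by 1.44 (SE 0.21) and 1.17 (SE 0.20). These 3 calls did not hold with only strings found in 1 library, where Gapdh had a difference of 0.57 (adjusted p = 0.499). Ctla2a, a cathepsin inhibitor of lymphocytes (2.25, SE 0.24), and Srgn, the proteoglycan core of cytotoxic granules (1.26, SE 0.17), were higher and kept their calls there. Of the p53 targets 4 of 42 were higher and 1 lower, a share near the 12.5% of all genes called in either direction, with Cdkn1a at 332.8, 357.2 and 500.6 CPM in MC38 (1.32, SE 0.33, adjusted p = 0.0198) and Bax higher by 1.41 (SE 0.21). With only strings found in 1 library Bax was at 0.79 (adjusted p = 0.361) and was not called. Without MC38 irradiated replicate 4 the Cdkn1a difference was 1.09 (adjusted p = 0.155), which ends the call. Macrophage and monocyte genes moved with this comparison, 4 of 19 being higher and 2 lower (Ccr2 and Itgam, which NK cells also express), with Apoe at 5.18 (SE 1.15), and none of Apoe, Lyz2 and Cd14 was called without replicate 4 or with only strings found in 1 library.

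**Figure D5:**
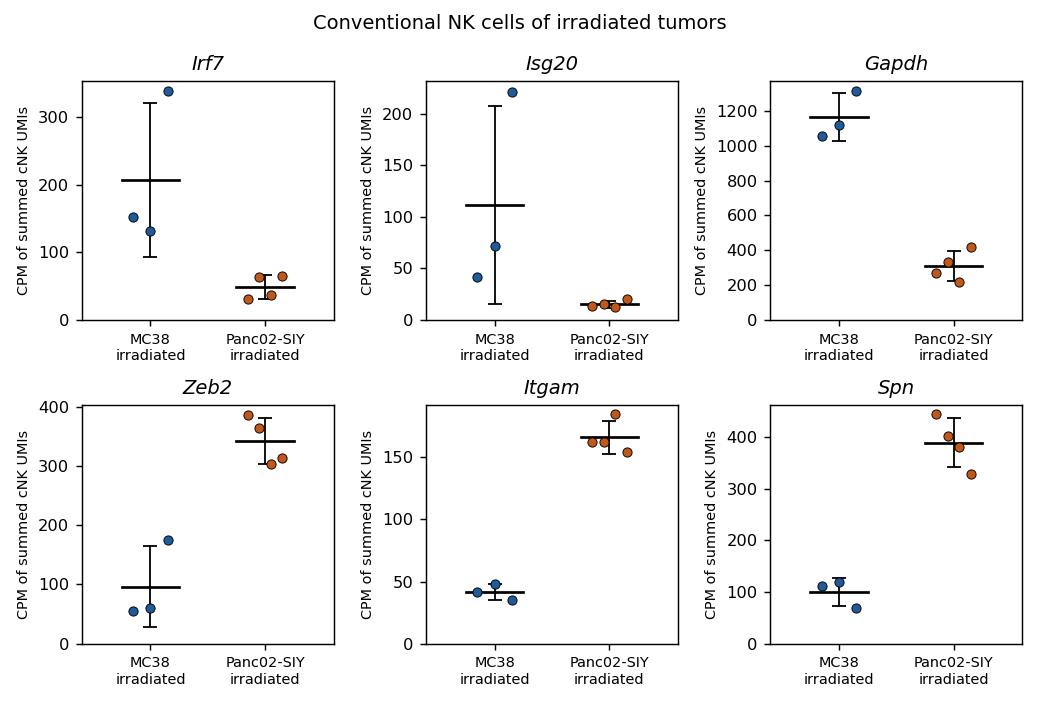
Scaled CPM of the summed cNK UMIs per library for Irf7, Isg20, Gapdh, Zeb2, Itgam and Spn in irradiated MC38 (3 libraries) and irradiated Panc02-SIY tumors (4 libraries); each point is 1 library, and the bars are the mean and SD. Irf7, Isg20 and Gapdh were higher and Zeb2, Itgam and Spn lower in MC38, with no overlap in any panel.

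In untreated tumors, with 8 MC38 members in 2 libraries, 17 genes were higher in MC38 (0.176%) and 134 lower (1.38%; 1.56% in either direction), beside a median log2 difference of -0.67 over all genes. With RLE scaling, 34 were higher and 51 lower, and DESeq2 called 81 higher and 50 lower, or 58 and 12 without independent filtering, with 62 and 27 of these calls among the 151. Gapdh (1.33, SE 0.25, edgeR adjusted p = 0.00106), Aldoa (1.34, SE 0.29), Eno1 (1.27, SE 0.28) and Ldha (1.16, SE 0.28) were higher, so that 4 of 25 glycolysis and hypoxia genes passed and none was lower. Il18rap, a chain of the IL-18 receptor, stood at 124.1 and 26.3 CPM in MC38 and at 465.3, 410.8, 480.5 and 373.4 CPM in Panc02-SIY without overlap (-2.42, SE 0.45, edgeR adjusted p = 0.00106). Itgal (-1.47, SE 0.33), Prf1 (-1.08, SE 0.25) and Il2rb (-1.05, SE 0.24) were lower as well. Tcf7, a factor of early lymphocytes, had 1 UMI in MC38 and 255 in Panc02-SIY, a ratio of 0.101 per UMI (95% counting interval 0.00254 to 0.566). Between the untreated groups, only Panc02-SIY held enough Tcf7 UMIs for the count filter. None of 70 interferon-stimulated genes was called in the untreated state. Without MC38 untreated replicate 1, the calls between the untreated tumors went from 151 to 30, and those of Gapdh, Aldoa, Eno1, Ldha, Itgal, Prf1, Il2rb and Tcf7 were lost. Aldoa, Eno1, Prf1 and Il2rb also lost theirs without MC38 untreated replicate 4, and Gapdh, Aldoa, Ldha and Itgal after thinning.

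The nuclear RNAs Malat1 and Xist were called lower in MC38 in both states, beside medians over all genes of -0.67 untreated and -0.27 irradiated. Malat1 stood at 18322 and 16481 CPM in untreated MC38 and at 31370, 35508, 30567 and 35903 CPM in untreated Panc02-SIY libraries (-0.94, SE 0.15, edgeR adjusted p = 7.05e-05), and at 20561, 23471 and 23402 CPM against 29891, 34287, 32855 and 34532 CPM when irradiated (-0.55, SE 0.12). Xist, the RNA that coats the inactive X chromosome in female cells, stood at 517 and 210.3 CPM against 1195.7, 1184.6, 1354.5 and 1253 CPM untreated (-1.73, SE 0.27, adjusted p = 7.05e-05) and at 443.7, 571.6 and 535.6 CPM against 1160.3, 1327.3, 1461.8 and 1272.1 CPM irradiated (-1.33, SE 0.20). Neither overlapped between the tumors. Neat1, a scaffold of nuclear paraspeckles that was chosen after its values were seen, had differences of -0.62 (SE 0.35, not called) and -0.60 (SE 0.23, adjusted p = 0.0987). Over all barcodes kept, Xist was also lower in every MC38 library, at 414.6 to 602.9 CPM against 815.5 to 1261 CPM, and 4 Y-linked genes summed to at most 0.809 CPM in any library. The median share of mitochondrial UMIs per member was 2.19% to 2.93% over the 7 MC38 libraries with members and 2.87% to 3.83% over the Panc02-SIY libraries. What these RNAs and shares have to do with the other differences between the tumors was not tested.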

How the data were processed

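Single-cell RNA-seq of CD45+ tumor cells was analyzed in 16 libraries. The deposited values are raw UMI counts per gene and barcode, which the authors made with Cell Ranger 3.1.0, bcl2fastq 2.20.0 and mm10 per the submitters' processing notes. The deposited matrices held 3240877 to 43776342 UMIs per library and 31053 features. Barcodes with at least 500 genes and at most 10% mt- UMIs were kept, 16350 in all, with a median of 4417 to 26253 UMIs per library. Doublets were not removed in the main fits. The members and gene lists were chosen with earlier results of these data known, and the gate uses measured counts.

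UMIs were summed per library and tested with edgeR 4.0.16 (quasi-likelihood, TMM, genes with a minimum count of 3 and total of 15) in R 4.3.3, over the 13 libraries with at least 3 members, 1 coefficient per group. MC38 untreated replicates 2 and 3 and irradiated replicate 1 were thus left out. Calls needed an adjusted p below 0.1 and a change of more than 1.3-fold over all genes tested. The 7 selection genes were never called. Log2 changes are fitted with edgeR's small prior count. Shares were compared by exact two-sided permutation tests (scipy 1.17.1). The named genes were members of the lists, called ones first and then the most abundant, and per comparison up to 10 called genes in each direction with the smallest p whose groups did not overlap; mitochondrial, ribosomal and predicted genes were not named. Comparisons with 1 population alone were chosen after seeing the data. Alternatives were DESeq2 1.42.0, RLE scaling, other filters on counts, barcodes and shared strings, doublet scores from scanpy 1.11.5, thinning, a replicate block and leaving out libraries. Only the edgeR fits of the Panc02-SIY radiation response and of its difference from that of CD8 T cells were tested on simulated data. Intervals and the limits for a count of 0 (3 counts, 95% level) cover counting error only. Promoter windows are from RefSeq, gene coordinates from the GENCODE annotation of GRCm38. Results for some genes are not reported here.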

Additional observations from a re-analysis of the deposited data

Results flagged for a closer look

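In 7 of 56 sets of 4 libraries checked, 1 library lay apart from the other 3 by more than Dixon's criterion at the 95% level, which chance alone meets in about 1 of 20 sets of continuous values. That rate does not apply to 2 of the 7, Phlda3 and the Itga1-positive NK share, where the other 3 values were 0 and any value above 0 meets the criterion. In Panc02-SIY untreated replicate 4 the 5 defining macrophage markers summed to 1492.7 CPM and the B cell markers to 174.82 CPM, both the highest of the group. The same library held the only Phlda3 UMI of the group (1.56 CPM) and Cd7 at 325 CPM, apart from the other 3 libraries. Cd7 was called lower after irradiation with and without this library, and the part of other cells' RNA in its values was not tested. In Panc02-SIY untreated replicate 3, Trp53inp1 was at 110.73 CPM and Gzma at 9073.9 CPM after TMM scaling (Trp53inp1 was at 106.9 CPM without it), each apart from the other 3. The Itga1-positive NK share was 1.37% in MC38 irradiated replicate 4 and no such barcode was found in the other 3 irradiated MC38 libraries, whose counts of 0 allow shares of up to 4%, 2.48% and 1.33%.

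The radiation response differed between the tumors, by the test of the difference itself, for 7 genes. As the response in MC38 minus that in Panc02-SIY on the log2 scale, the differences were 1.21 for H2-K1, 1.21 for Cd52, 1.54 for Ly6e, 1.99 for Psmb10, 9.16 for the interferon-induced gene Ifi208, 8.77 for Ikzf3 and -3.24 for Commd8. The values for Ifi208 and Ikzf3 depend on the prior count and are not bounds. Each rests on 8 untreated and 22 irradiated MC38 members, of which some share barcode strings with other libraries.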

How the results depend on the processing

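Of 156 single-gene results, each a gene in 1 comparison, 71 kept their call and direction under every alternative run, and 2 reversed: between irradiated tumors with only strings found in 1 library, Ldha was at -0.48 and Lyz2 at -0.57. The causes of these and the following shifts were not tested.

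For the Panc02-SIY radiation response (5 genes called), the count was 2 with at least 3 Ncr1 and Klrb1c UMIs, 29 by DESeq2, which gave no adjusted p for 9203 genes and held none of the 5, to none of which it gave an adjusted p, 12 by DESeq2 without independent filtering (4 of the 5), 3 at a minimum count of 10, 21 with no filter, 14 in the fit of 2 groups and again with 10 or more members per library, 10 with only strings found in 1 library, 19 after thinning and 21 without members carrying other cells' UMIs. In MC38 (10) it was 21 with all barcodes, 36 with no filter, 5 with RLE and 0 in the fit of 2 groups. For the mean response (19) it was 11 with 3 UMIs, 36 with no filter, 8 with RLE and 9 after thinning. For the difference between tumors' responses (7) it was 2 with all barcodes, 75 by DESeq2 (3 of the 7), 2 without independent filtering, 17 with no filter, 1 with RLE, 3 after thinning and 4 without likely doublets. Between irradiated tumors (1207) it was 270 with only strings found in 1 library and 794 after thinning (127 higher and 667 lower), and between untreated tumors (151) it was 380 with all barcodes, 85 with RLE and 70 by DESeq2 without independent filtering. Against CD8 T cells (157) it was 103 by DESeq2, 45 without independent filtering and 86 at a minimum count of 10, and against Itga1-positive NK cells (23) it was 11 and 6 by DESeq2 with and without that filtering. Leaving out 1 library gave 792 to 1008 genes for cNK against Itga1-positive NK, 798 to 1168 for irradiated and 30 to 172 for untreated tumors, 4 to 22 for MC38, 2 to 9 for Panc02-SIY, 5 to 27 for the mean response, 0 to 32 for its difference between tumors, 36 to 245 against CD8 T and 13 to 64 against Itga1-positive NK cells.

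The irradiated minus untreated share in MC38 (2.19 percentage points) was no longer called with all barcodes (0.309), with no filter on barcodes (1.43), as a percent of the NK selection (39.1), after thinning (0.273) or with only strings found in 1 library (1.85). In Panc02-SIY it was 2.82 after thinning and 6.1 with only such strings, and neither passed. MC38 minus Panc02-SIY was -2.72 and -4.17 untreated and -5.27 and -8.43 irradiated under these settings, and -0.679 irradiated as a percent of the NK selection, none of them called. Leaving out 1 library gave 1.44 to 2.82, 4.41 to 7.43, -5.1 to -3.33 and -9.54 to -6.51.

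In Panc02-SIY, where the pairing was checked, it was not settled whether the replicate numbers pair the libraries. Same-numbered deviations correlated at 0.0299 to 0.466, above 0.1 in 2 of 4 pairs, and other-numbered ones at -0.36 to 0.0994. Of 8 libraries 5 correlated best with their own number, and the main fits and share tests used no pairing by number. With a replicate block 32 genes were called in Panc02-SIY, 47 in MC38, 69 for the mean response and 33 for its difference between tumors. With only strings found in 1 library, the MC38 radiation comparisons and the untreated tumors gave no value, nor did MC38 with 10 or more members per library or without members carrying other cells' UMIs. The MC38 comparisons rest on few UMIs, 73432 over the untreated members. Where 1 MC38 untreated library was left, it was assumed to vary like the other groups.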
